A study of Mus musculus with 8 samples.

Results

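The contrast set 2 RNA-seq libraries of Sox2-KD E14 ESCs directly against the 2 libraries labelled hnRNPK-KD, 4 of the 8 libraries of the series. It asked which transcripts differ between cells infected with shRNA against Sox2 and cells infected with shRNA against hnRNPK. E14 is an established mouse embryonic stem cell line. The libraries were chosen by their knockdown label alone, and no control library enters the difference. Both groups carried a lentiviral GV248 hairpin, were selected with puromycin for 5 days and grew on gelatin in medium with LIF and inhibitors of GSK3 and MEK, CHIR99021 and PD0325901. The other 4 libraries, 2 of control cells with a scrambled hairpin and 2 of Cdk9-KD cells, are given beside the results to show on which side they lie. Each group consisted of biological duplicates of puromycin-selected pools, and which of the hairpins each library received is not given in the sources used here.

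SOX2 is an HMG-box transcription factor that works with OCT4 at enhancers of pluripotency genes, and its loss lets ESCs take on trophectoderm-like features. hnRNPK is an abundant nuclear protein whose KH domains bind cytosine-rich RNA and DNA, with roles in splicing, mRNA stability and transcription. A transcript that changed alike in both groups cancels in their direct difference. The contrast thus holds what the groups as labelled do not share, together with the spread between libraries. It does not show whether each label reflects a knockdown.

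The hairpin targets are shown because they fix which transcript each label refers to. Each target has 21 bases and is written from 5′ to 3′ as it occurs in the mRNA, with the bases opposite positions 2 to 8 of the antisense strand, the seed of a guide, in capitals.
SOX2-shRNA1: aggagcacccggaTTATAAAt
SOX2-shRNA2: caaagagatacaaGGGAATTg
hnRNPK-shRNA1: cggattaaacaaaTTCGTCAt
hnRNPK-shRNA2: gggttcagtgctgATGAAACt
In GRCm38 the first Sox2 target lies at chr3:34650729-34650749, plus strand, in the coding part of the single Sox2 exon, and the second at chr3:34651412-34651432 in its 3′ UTR. The Hnrnpk targets lie on the minus strand in coding exons, at chr13:58393312-58393332 and chr13:58394136-58394156. Among GENCODE vM21 transcripts, both Sox2 targets matched Sox2 alone, whereas the Hnrnpk targets also matched the processed pseudogene Gm7964, and the second of them matched a further pseudogene, Gm4130.

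Sox2 mRNA was lower in Sox2-KD, at 320 and 284 TMM-normalized CPM (counts per 1000000, scaled by the trimmed mean of M values), than in the libraries labelled hnRNPK-KD, at 479 and 520. The groups did not overlap, and the controls at 412 and 530 and the Cdk9-KD libraries at 590 and 534 lay above both Sox2-KD libraries. The mean was 302 CPM in Sox2-KD and 471 CPM in the controls, a partial reduction of the mRNA. The log2 fold change of Sox2-KD over labelled hnRNPK-KD (log2FC) was -0.73 (SE 0.159, adjusted p = 0.0269, n = 2 and 2), equal to a 1.65-fold higher level in the labelled hnRNPK-KD group. The call ended when any 1 of the 4 libraries was left out, with log2FC of -0.83 to -0.64. Hnrnpk mRNA stood at 965 and 959 CPM in Sox2-KD against 697 and 1144 CPM in the libraries labelled hnRNPK-KD. Replicate 1 of the latter was at 62.7% of the control mean and replicate 2 at 102.9%, so that Hnrnpk does not bear out the label of replicate 2. The Hnrnpk log2FC of 0.06 had a 95% confidence interval from -0.38 to 0.51 and an adjusted p of 0.895. Its direction turned to -0.25 without replicate 1 of that group and rose to 0.48 without replicate 2. Counts of the pseudogene Gm7964 followed the same order, with 911 and 867 in Sox2-KD against 530 and 980 in the libraries labelled hnRNPK-KD. Sequence shared by Hnrnpk and its pseudogene may have been split in counting, so neither count is certain. Every direction below is therefore one against the libraries labelled hnRNPK-KD, whichever their hnRNPK level.

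**Figure D1:**
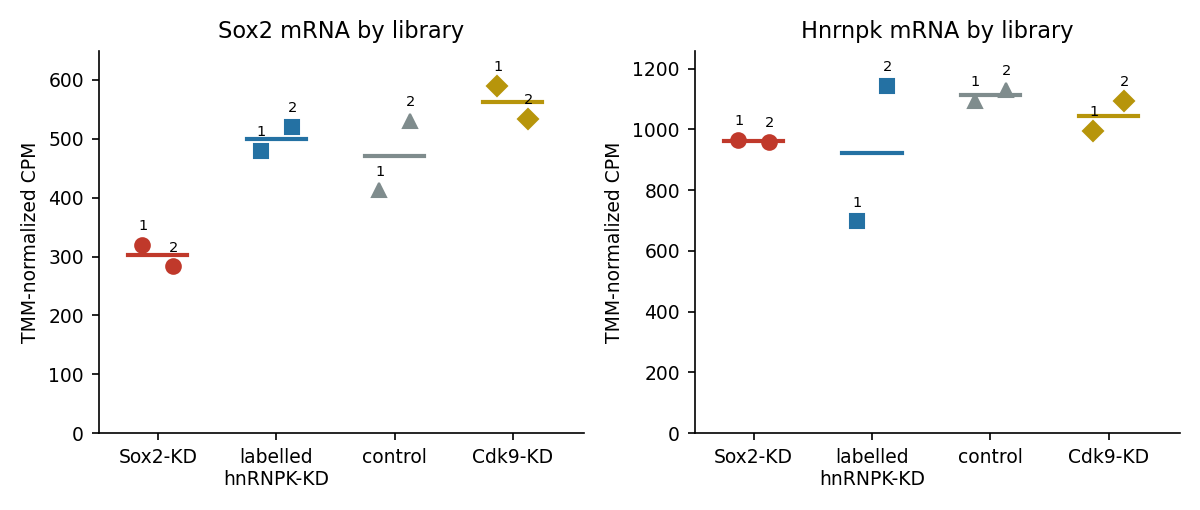
Levels of the targeted transcripts in all 8 libraries, with TMM-normalized CPM on the vertical axis from 0 and the 4 groups on the horizontal axis. Points are libraries with their replicate number, bars are group means; both Sox2-KD libraries are the lowest for Sox2, while for Hnrnpk replicate 1 of the libraries labelled hnRNPK-KD lies at 697 CPM and replicate 2 at 1144 CPM.

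All 8 libraries had similar depth, from 16709201 to 17719366 counts. Log2 CPM of Sox2-KD replicates 1 and 2 correlated with r = 0.983 across genes, as did those of the libraries labelled hnRNPK-KD, and the values between both groups were 0.946 to 0.975; genes are not independent replicates. Both groups expressed the ESC genes Pou5f1, Nanog, Zfp42 and Esrrb at 566 CPM or above in every library of the contrast. In bulk RNA, fewer cells of a type and less RNA per cell cannot be told apart.

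Of 16504 genes tested by edgeR's quasi-likelihood test, 974 were differentially expressed (DE), by the criteria of |log2FC| > 0.6 and adjusted p < 0.05, or 5.9% of those tested. More DE genes were higher in Sox2-KD, 652 or 3.95%, than lower, 322 or 1.95%. The DE genes included 912 protein-coding genes, and 404 had an absolute log2FC over 2, of which 310 were higher and 94 lower in Sox2-KD. An unadjusted p under 0.05 was reached by 3518 genes, or 21.3%. DESeq2 called 1275 genes, or 7.73%, and edgeR's likelihood ratio test 1690, or 10.2%. Both groups lay apart without overlap for 9055 genes, or 54.9% of all tested, so the absence of overlap that held for all 974 DE genes carries little weight with 2 libraries a group. Scaling by library totals in place of TMM moved the median log2FC of all genes from -0.01 to 0.098 and the share of DE genes that were higher from 66.9% to 78.3% (903 higher, 250 lower). Without Sox2-KD replicate 2, 90 genes were called (44 higher, 46 lower). Without labelled hnRNPK-KD replicate 2 the count was 129 (57 higher, 72 lower), and without replicate 1 of that group it was 517.

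**Figure D2:**
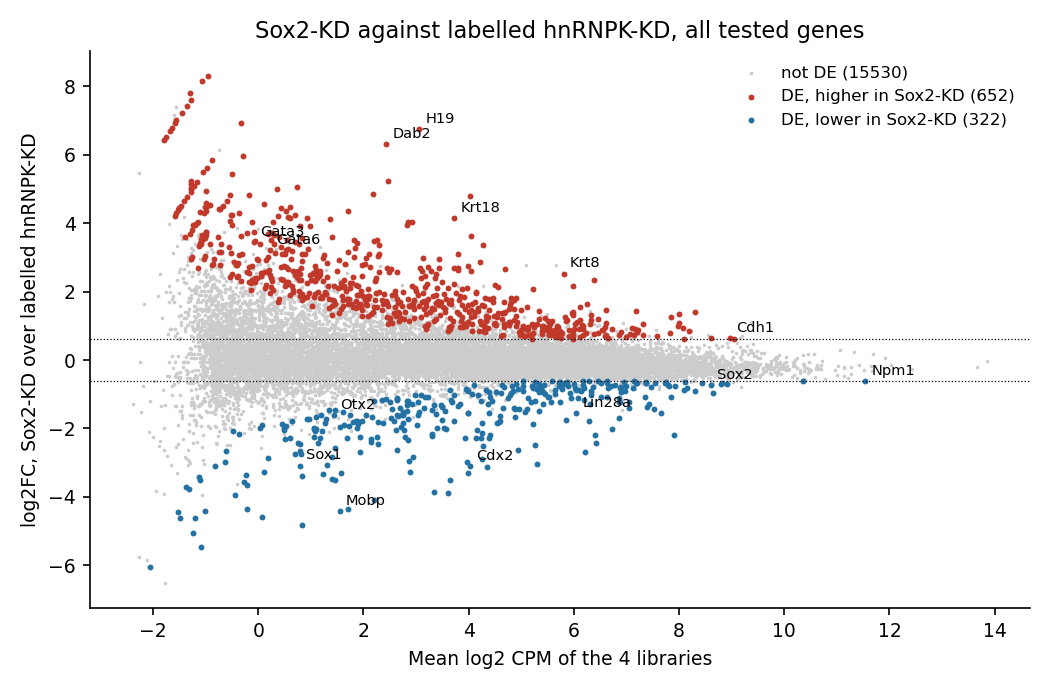
All 16504 tested genes, with the mean log2 CPM of the 4 libraries on the horizontal axis and the log2FC of Sox2-KD over labelled hnRNPK-KD on the vertical axis. Red and blue points are the 652 higher and 322 lower DE genes, grey points the others, and dotted lines mark a log2FC of 0.6 and -0.6.

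The Sox2-KD libraries were more often the ones that stood apart. For 586 of the 974 DE genes, 60.2%, the 2 control and 2 Cdk9-KD libraries all lay on the labelled hnRNPK-KD side of the midpoint between both groups, against 22.4% of all genes tested. The other four libraries lay on the Sox2-KD side for 17 DE genes, 1.75%, against 6.47% of all tested. DE genes were chosen by the same difference, so these shares are a description. Sox2-KD replicate 2 was further from the libraries labelled hnRNPK-KD than replicate 1 for 554 of the 652 higher genes. For the 322 lower genes, Sox2-KD replicate 2 exceeded replicate 1 in only 103, and replicate 2 of the libraries labelled hnRNPK-KD exceeded replicate 1 in 230, so replicate 2 of both groups was more often the further one.

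Trophectoderm genes, which mark the outer layer of the blastocyst and its placental derivatives, were mostly higher in Sox2-KD where they passed. Of 27 listed, 23 were tested, 10 were DE and higher in Sox2-KD and 1 was DE and lower. Among all tested genes, 3.95% were DE and higher and 1.95% DE and lower. The median log2FC was 1.32, against -0.01 over all genes. Wnt7b, Krt7 and Gata3 passed the filter on low counts through the Sox2-KD libraries alone. Such genes could hardly be other than higher, so the count and the median lean that way. The 11 calls became 4 without Sox2-KD replicate 2, 4 without labelled hnRNPK-KD replicate 2, 8 without labelled hnRNPK-KD replicate 1 and 10 without Sox2-KD replicate 1. Krt18, a simple-epithelium keratin, was measured at 41.4 and 82.7 CPM in Sox2-KD against 5.57 and 1.46 CPM in the libraries labelled hnRNPK-KD. Both Sox2-KD libraries were above every other library, whose highest value was 5.57 (log2FC 4.14, SE 0.517, adjusted p = 0.00323). Its partner Krt8 stood at 97.1 and 182 CPM against 30.4 and 18 CPM. Here too the groups were apart, and the controls at 18.4 and 17.4 lay with the libraries labelled hnRNPK-KD (log2FC 2.53, SE 0.306, adjusted p = 0.0029). Krt19, a further keratin of this epithelium, had 7.69 and 22.7 CPM against 2.11 and 2.68 CPM (log2FC 2.66, adjusted p = 0.0115).

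Gata3, a zinc-finger factor of trophoblast, was low in absolute terms but higher in Sox2-KD, with 43 and 50 counts against 6 and 2 (log2FC 3.44, adjusted p = 0.00991). Its relative Gata2 had 11.3 and 13.2 CPM against 4.87 and 3.2 CPM and did not pass the test (log2FC 1.60, adjusted p = 0.0568). Id2, an inhibitor of basic helix-loop-helix factors, was at 14.9 and 13 CPM against 2.93 and 1.34 CPM (log2FC 2.7, adjusted p = 0.0253). All 3 genes were thus higher in both Sox2-KD libraries, and the difference of Gata2 missed the threshold. Some members were almost absent from the libraries labelled hnRNPK-KD: Wnt7b, a Wnt ligand, had 68 and 90 counts in Sox2-KD and 1 and 0 in that group, and the keratin Krt7 had 59 and 86 against 2 and 0. Counts this small give no reliable fold. The placental homeobox gene Esx1 and the claudins Cldn7 and Cldn4 were also DE and higher. Cldn7 stood at 3.52 and 6.73 CPM against 0.997 and 0.64 CPM.

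Cdx2, the homeobox factor of trophectoderm and later of posterior embryonic tissue, went the other way. It was measured at 6.1 and 6.22 CPM in Sox2-KD against 20.3 and 85.1 CPM in the libraries labelled hnRNPK-KD. The controls at 19.8 and 35.1 and the Cdk9-KD libraries at 22.4 and 29 lay above both Sox2-KD libraries, and replicate 2 of the labelled hnRNPK-KD group lay above all others (log2FC -3.10, SE 0.554, adjusted p = 0.0129). Hoxa7, a posterior homeobox gene, was likewise lower in Sox2-KD, at 1.26 and 0.342 CPM against 3.75 and 12.6 CPM (log2FC -3.33, adjusted p = 0.0188). Fgfr2, the FGF receptor of trophoblast, had 4.07 and 3.42 CPM against 1.47 and 0.931 CPM with an adjusted p of 0.0686. Other transcription factor genes of the list were not DE. Their log2FC was 1.32 for Ascl2, 0.295 for Tfap2c, 0.202 for Tead4 and 0.185 for Eomes. It was -0.034 for Msx2, -0.051 for Elf3, -0.124 for Tfap2a and -0.337 for Ets2. Elf5 was below the filter. The summed trophectoderm list, as CPM of the library total without TMM, stood at 593 and 835 in Sox2-KD against 398 and 439 for labelled hnRNPK-KD, with 411 to 447 in the other four.

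Epithelial adhesion genes were divided. Among 24 tested adhesion genes, 6 were DE and higher in Sox2-KD and 3 DE and lower, against 3.95% and 1.95% of all tested genes. The list median log2FC was 0.36. The keratins and claudins above made up 5 of the higher members, which the 2 lists share, and Cdh1, E-cadherin, was the other. Apart from these shared members the list thus held 1 higher and 3 lower calls. Cdh1 stood at 565 and 684 CPM against 428 and 372 CPM, a difference near the threshold (log2FC 0.64, adjusted p = 0.0466). The lower members were Cdh3, the epithelial P-cadherin, Cdh2, N-cadherin, and Vim, an intermediate filament protein of mesenchyme and undifferentiated cells. Cdh3 had 117 and 93 counts against 298 and 253 (log2FC -1.45, SE 0.225, adjusted p = 0.00714). Vim was measured at 148 and 93.1 CPM in Sox2-KD against 328 and 373 CPM in the libraries labelled hnRNPK-KD, with the other four libraries between 260 and 359 CPM (log2FC -1.54, SE 0.221, adjusted p = 0.00534). Cdh2 had 4.73 and 2 CPM against 10 and 22.1 CPM (log2FC -2.25, adjusted p = 0.0244). Ocln, the tight-junction protein occludin, had 8.85 and 13.6 CPM against 4.87 and 1.69 CPM and an adjusted p of 0.0849. Its controls were at 5.52 and 12.1 CPM, so control replicate 2 lay between both Sox2-KD libraries. The 9 calls of the list fell to 3 without Sox2-KD replicate 2 and to 4 without labelled hnRNPK-KD replicate 2.

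Genes of primitive endoderm, the other extra-embryonic lineage of the blastocyst, held one of the sharpest differences of the contrast. Dab2, an endocytic adaptor of that lineage, was at 35 and 54.2 CPM in Sox2-KD against 0.469 and 0.64 CPM in the libraries labelled hnRNPK-KD. No other library exceeded 0.859 CPM, and the gene was 79.4-fold higher in Sox2-KD (log2FC 6.31, SE 0.421, adjusted p = 0.000236). Of 23 tested members, 5 were DE and higher and 2 DE and lower, with a median log2FC of 0.93, and 2 members were called when replicate 2 of either group was left out. Of all tested genes, 3.95% were DE and higher and 1.95% DE and lower. Gata6, the zinc-finger factor that specifies the lineage, had 49 and 68 counts against 10 and 2 (log2FC 3.20, adjusted p = 0.0145). It passed the filter on low counts through the Sox2-KD libraries, and such members tilt the list count and median upward. Plat, tissue plasminogen activator, had 40 and 60 counts against 6 and 3 (log2FC 3.38, adjusted p = 0.0106). Lrp2, the endocytic receptor megalin, was at 45.7 and 35.7 CPM against 16.2 and 8.96 CPM (log2FC 1.69, adjusted p = 0.0167). These 3 genes were higher in both Sox2-KD libraries than in any other library. Sox17 had 17 and 10 counts against 3 and 0 and did not pass (adjusted p = 0.0914).

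Matrix genes of the same lineage were divided. Sparc, a collagen-binding secreted protein, stood at 354 and 469 CPM against 181 and 142 CPM (log2FC 1.35, SE 0.201, adjusted p = 0.00619). Lama1, the laminin chain of early basement membranes, stood at 88.8 and 139 CPM against 314 and 303 CPM (log2FC -1.44, SE 0.205, adjusted p = 0.00503). Sparc was thus highest and Lama1 lowest in the Sox2-KD libraries, and the other four libraries were at 130 to 207 CPM for Sparc and 217 to 341 CPM for Lama1. Over 19 tested basement membrane and matrix genes, 2 were DE and higher and 2 DE and lower, against 3.95% and 1.95% of all tested genes. The list median log2FC was 0.09. These 4 calls became 1 without Sox2-KD replicate 2 and 2 without labelled hnRNPK-KD replicate 2. Nid2, nidogen 2, had 690 and 614 CPM against 415 and 440 CPM (log2FC 0.61, adjusted p = 0.0283), while Hspg2, perlecan, had 385 and 313 CPM against 573 and 556 CPM (log2FC -0.69, adjusted p = 0.0263). Col4a2, a type IV collagen chain, had 11.2 and 9.59 CPM against 5.1 and 2.39 CPM (adjusted p = 0.0563), and its chaperone Serpinh1 had 112 and 159 CPM against 57.7 and 57 CPM (adjusted p = 0.0529). For Serpinh1, Cdk9-KD replicate 1 at 117 CPM lay above Sox2-KD replicate 1, and control replicate 2 was at 101 CPM. Apob, a lipoprotein of visceral endoderm, was DE and lower, mainly through replicate 2 of the libraries labelled hnRNPK-KD, at 5.41 CPM against 1.17 in replicate 1.

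Markers of fibroblasts, the cells used as feeders in other ESC cultures, were examined as well. Of 20 listed, 10 were tested and 3 were DE, all higher in Sox2-KD: the proteoglycan Lum, the lysyl oxidase Loxl1 and the gelatinase Mmp2. Over all tested genes 5.9% were DE, and Lum passed the filter on low counts through the Sox2-KD libraries alone. No member (0) was called without Sox2-KD replicate 2 or without either library labelled hnRNPK-KD. Lum had 23 and 13 counts in Sox2-KD against 2 and 0 for labelled hnRNPK-KD, and Mmp2 had 3.35 and 8.62 CPM against 1.47 and 1.28 CPM. The summed list was at 37.1 and 50.3 CPM in Sox2-KD against 25.9 and 23.5 for labelled hnRNPK-KD, with 30.2 to 42.9 in the other four. Twist2 and S100a4 had 0 counts in all 8 libraries, and Col1a1 had 9 and 18 counts against 15 and 7. The part of these transcripts in the matrix results was not tested.

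**Figure D3:**
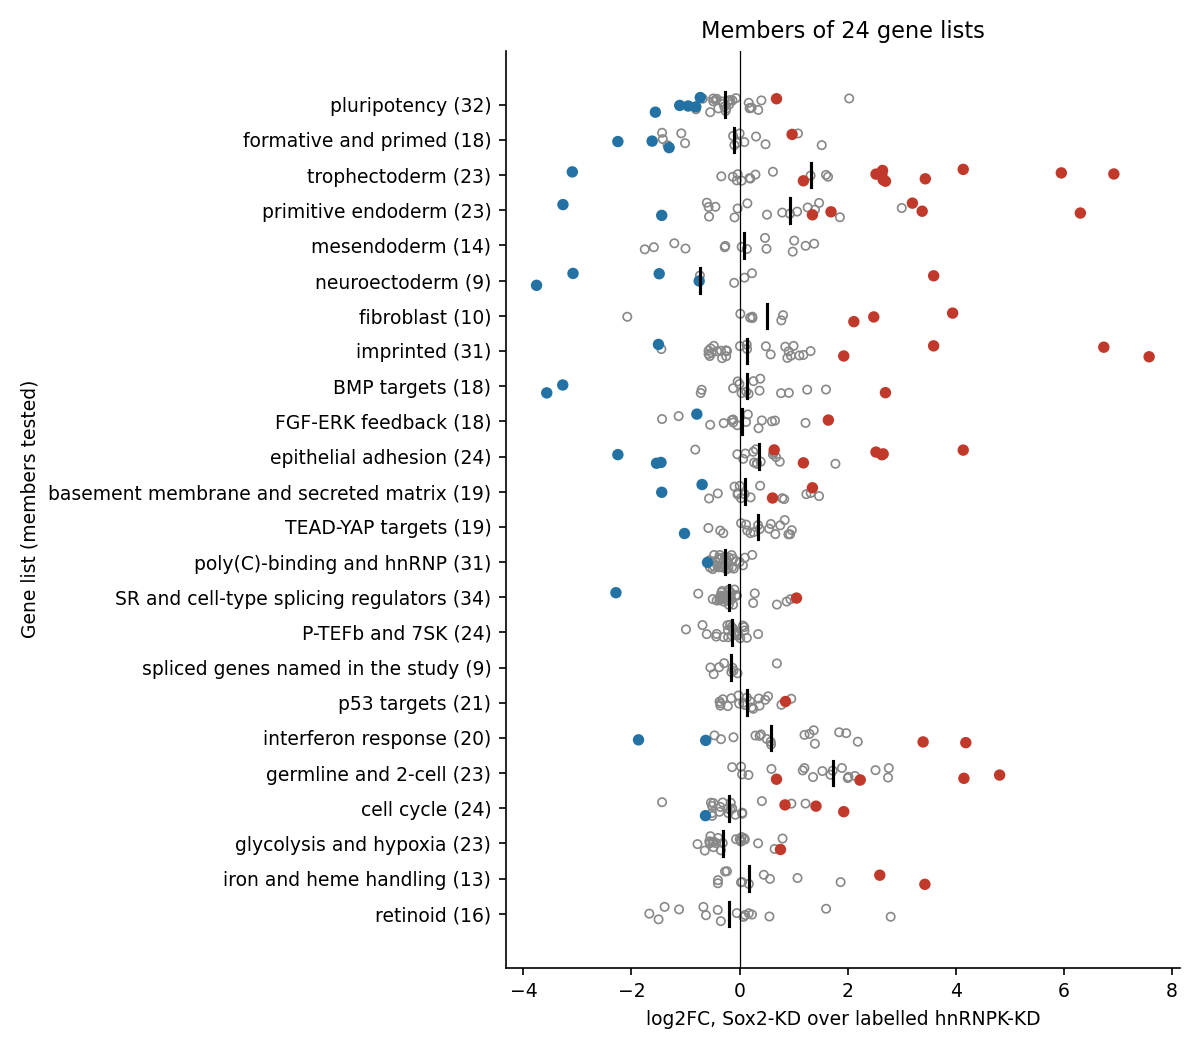
Log2FC of Sox2-KD over labelled hnRNPK-KD (horizontal axis) for the tested members of 24 gene lists (vertical axis, number tested in brackets). Filled red and blue points are DE members that were higher and lower, open points did not pass, and black bars are list medians; the trophectoderm median lies at 1.32 and that of hnRNP genes at -0.27, against -0.01 for all genes.

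Pluripotency genes were mostly lower in Sox2-KD where they passed. Of 32 tested, 1 was DE and higher in Sox2-KD and 5 were DE and lower, Sox2 itself among them. Those shares were 3.95% and 1.95% over all tested genes. The median log2FC was -0.27. An unadjusted p under 0.05 was reached by 16 of the 32, 3 higher and 13 lower, against 21.3% of all tested genes. The 6 calls fell to 3 without Sox2-KD replicate 1, 2 without labelled hnRNPK-KD replicate 1 and 0 without replicate 2 of either group. Lin28a, an inhibitor of let-7 maturation, was at 51.5 and 29.6 CPM against 76.3 and 163 CPM (log2FC -1.56, SE 0.397, adjusted p = 0.0452). Nr0b1, the nuclear receptor DAX1, was at 54.5 and 38.2 CPM against 102 and 97.1 CPM (log2FC -1.11, adjusted p = 0.0339). Tcl1, a co-activator of AKT, was at 31 and 31 CPM against 57.2 and 62.7 CPM (log2FC -0.95, SE 0.148, adjusted p = 0.00723). For Tcl1 both Sox2-KD libraries were below the remaining 6, whereas for Lin28a control replicate 1 at 56.8 CPM lay close to Sox2-KD replicate 1. Dppa2, which primes developmental and germline promoters, was the higher one, at 82.5 and 94.1 CPM against 55.5 and 54.4 CPM (log2FC 0.69, adjusted p = 0.0289).

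Sox2 apart, the core factors Pou5f1 and Nanog and several of their partners did not pass the test. Pou5f1, which encodes OCT4, had 584 and 653 CPM in Sox2-KD against 719 and 747 CPM in the libraries labelled hnRNPK-KD (log2FC -0.24, adjusted p = 0.349). Nanog had 612 and 566 CPM against 772 and 594 CPM (log2FC -0.21, adjusted p = 0.482). Esrrb, an orphan nuclear receptor, had 677 and 733 CPM against 885 and 876 CPM (log2FC -0.32, adjusted p = 0.281). The zinc-finger gene Sall4 had 203 and 201 CPM against 265 and 265 CPM (log2FC -0.39, adjusted p = 0.18). Fgf4, a growth factor gene with a well-known SOX2 and OCT4 enhancer, had 93.2 and 156 CPM against 195 and 169 CPM (log2FC -0.54, adjusted p = 0.184). Pou5f1, Esrrb, Sall4 and Fgf4 were lower in both Sox2-KD libraries than in both libraries labelled hnRNPK-KD, by amounts that the test did not separate from replicate spread. Nanog overlapped between the groups, as did Zfp42, at 601 and 736 CPM against 846 and 668 CPM.

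Neural and formative genes, several of which are known to depend on SOX-family factors, were mostly lower in Sox2-KD where they passed. Of 20 neuroectoderm genes, 9 were tested, 4 were DE and lower and 1 was DE and higher, and the 5 calls became 2 without replicate 2 of either group and 3 without Sox2-KD replicate 1. Over all tested genes 5.9% were DE. Sox1, the neural relative of Sox2, had 10 and 9 counts in Sox2-KD against 87 and 69 in the libraries labelled hnRNPK-KD. The controls, with 100 and 52 counts, and the Cdk9-KD libraries, with 68 and 129, lay on the latter side (log2FC -3.08, SE 0.495, adjusted p = 0.00836). Rfx4, a neural winged-helix factor, had 1 and 1 counts against 18 and 11. Ncam1, a neural adhesion molecule, stood at 5.55 and 8.45 CPM against 16.4 and 22.8 CPM (log2FC -1.49, adjusted p = 0.0107), and the tubulin regulator Stmn2 at 176 and 173 CPM against 247 and 338 CPM (log2FC -0.75, adjusted p = 0.0491). Sox1, Rfx4, Ncam1 and Stmn2 were thus lower in both Sox2-KD libraries than in any other. The orphan receptor Nr2f2, which is also a gene of trophoblast and mesenchyme, was the higher one, at 9.23 and 7.88 CPM against 0.762 and 0.64 CPM (log2FC 3.6, SE 0.396, adjusted p = 0.00226). Tubb3, neuronal tubulin, had 18.7 and 17.6 CPM against 28.1 and 32.2 CPM and an adjusted p of 0.108.

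Among 18 tested formative and primed genes, 3 were DE and lower, Cdh2, Otx2 and Sall2, and 1 was DE and higher, and none (0) was called without replicate 2 of either group. Over all tested genes 5.9% were DE. The list median of -0.11 changed sign to 0.00 with library totals. Otx2, a homeobox factor of the epiblast, had 1.87 and 1.2 CPM against 3.17 and 6.29 CPM (log2FC -1.62, adjusted p = 0.0448), but the controls at 1.52 and 1.78 CPM lay with Sox2-KD. Sall2, a zinc-finger gene, had 6.54 and 6.28 CPM against 18.4 and 13.3 CPM (log2FC -1.30, adjusted p = 0.0332). Dnmt3a, a de novo DNA methyltransferase, had 56.8 and 70.8 CPM against 34.1 and 30.8 CPM, with the controls between at 43.9 and 50.9 (log2FC 0.97, adjusted p = 0.0244). Zic2 showed how one library can set a gap, at 16.4 and 11.6 CPM against 20.9 and 54.3 CPM (adjusted p = 0.147). None of 14 tested mesendoderm genes was DE in edgeR's quasi-likelihood test. An unadjusted p under 0.05 was reached by 5 of the 14, against 21.3% of all tested genes, and DESeq2 called 1 and the likelihood ratio test 2. T, brachyury, had 9.56 and 3.31 CPM against 13.1 and 25.7 CPM (adjusted p = 0.104), and the Wnt target Sp5 had 120 and 133 CPM against 55.3 and 70.4 CPM (adjusted p = 0.112).

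Imprinted genes held the largest single difference among adequately expressed genes. H19, a maternally expressed non-coding RNA at chr7:142575529-142578143 on the minus strand, was at 54.1 and 161 CPM in Sox2-KD against 1.82 and 0.175 CPM in the libraries labelled hnRNPK-KD. Those are 985 and 2815 counts against 31 and 3, and the other four libraries had 0 to 9 counts (log2FC 6.75, SE 0.717, adjusted p = 0.00184). Igf2, the growth factor gene next to it that is expressed from the paternal allele, had 26 and 23 counts in the Sox2-KD libraries and 0 in each of the other 6. Against a floor of 3 counts in each library, Igf2 was at least 7.82-fold higher. Of 31 imprinted genes tested, 4 were DE and higher and 1 DE and lower, against 3.95% and 1.95% of all tested genes. The median log2FC was 0.13. Igf2 and Airn passed the filter on low counts through the Sox2-KD libraries alone, so their direction was nearly fixed. Leaving out Sox2-KD replicate 2, labelled hnRNPK-KD replicate 1 or its replicate 2 gave 1, 2 and 1 calls in place of 5.

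Cdkn1c, a cell cycle inhibitor of the same chromosome region, was at 3.3 and 5.88 CPM against 1.35 and 1.05 CPM (log2FC 1.93, adjusted p = 0.031). Airn, a non-coding RNA antisense to Igf2r, had 13 and 15 counts against 0 and 2. Igf2r itself had 220 and 275 CPM against 194 and 159 CPM (adjusted p = 0.104), and without a stated strand setting reads of this pair cannot be told apart. Gnas, a signalling G-protein locus with overlapping and antisense transcripts, was lower, at 5.11 and 3.25 CPM against 12.2 and 11.5 CPM (log2FC -1.50, adjusted p = 0.0169). Peg10, a placental gene derived from a retrotransposon, shows the limit of 2 replicates. It stood at 1279 and 859 CPM in Sox2-KD but at 225 and 767 CPM in the libraries labelled hnRNPK-KD, against 89 to 216 CPM in the other four (log2FC 1.11, adjusted p = 0.236). Plagl1, a zinc-finger gene, varied as much within groups, at 83.7 and 71.3 CPM against 120 and 303 CPM, with 77.7 and 340 CPM in Cdk9-KD.

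Germline and 2-cell-stage genes had the highest list median, 1.73 over 23 tested members, of which 4 were DE, all higher in Sox2-KD, and 0 without replicate 2 of either group. Over all tested genes 5.9% were DE and 3.95% DE and higher. The X-linked homeobox gene Rhox6 was at 5.88 and 5.82 CPM against 0.528 and 0.116 CPM (log2FC 4.16, adjusted p = 0.0145), and its neighbour Rhox9 had 45 and 79 counts against 3 and 1. Both passed the filter on low counts through the Sox2-KD libraries, so the list count and median lean upward. Slc25a31, a testis ADP/ATP carrier, was at 2.58 and 3.25 CPM against 0.821 and 0.407 CPM (log2FC 2.23, adjusted p = 0.0397). Rhox5 did not pass, at 100 and 187 CPM against 31.4 and 10.8 CPM (adjusted p = 0.0726). Replicate 2 of the libraries labelled hnRNPK-KD was above replicate 1 for only 1 of the 23. Zscan4c, a marker of the 2-cell-like state, illustrates that spread, with 88 and 74 counts in Sox2-KD against 33 and 2 for labelled hnRNPK-KD, beside 152 and 10 in the controls. Rhox and Zscan4 genes have near-identical copies, and how the deposited counts treat shared reads is not stated, so single members are uncertain. Pramel6, a multi-copy gene of early embryos outside the list, was at 35.9 and 172 CPM against 5.75 and 1.8 CPM (log2FC 4.78, adjusted p = 0.0083) and carries the same doubt.

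Signalling lists held calls in both directions, beside 5.9% DE among all tested genes. Among 18 tested BMP pathway genes, Id2 was DE and higher, and Id4 and the ligand Bmp2 were DE and lower, and without replicate 2 of either group 1 call was left. Id4 stood at 3.24 and 1.71 CPM in Sox2-KD, 14.4 and 33.7 CPM in the libraries labelled hnRNPK-KD and 17.9 to 24 CPM in the other four (log2FC -3.27, SE 0.426, adjusted p = 0.00399). Bmp2 had 6 and 1 counts against 45 and 37. For Bmp2 the controls, with 11 and 8 counts, lay nearer to Sox2-KD, while the libraries labelled hnRNPK-KD were the highest of all (log2FC -3.57, adjusted p = 0.0107). Id3 varied more widely, at 48.8 and 53.8 CPM against 21 and 22 CPM but 4 and 18.2 CPM in the controls (adjusted p = 0.227). Of 18 FGF-ERK genes, 1 was DE and higher, the immediate-response gene Phlda1 at 6.92 and 7.36 CPM against 2.64 and 1.92 CPM (log2FC 1.65, adjusted p = 0.0227). The ERK inhibitor Spred1 was the lower one, at 60.6 and 64.6 CPM against 101 and 116 CPM (log2FC -0.79, adjusted p = 0.039). Its controls were at 58.5 and 89.4 CPM, so control replicate 1 lay below both Sox2-KD libraries. Both FGF-ERK calls ended whichever of the 4 libraries was left out. Fgfr1 had 151 and 192 CPM against 110 and 108 CPM (adjusted p = 0.0824). Among 19 TEAD-YAP genes, the junction protein gene Amotl1 was DE and lower, at 10.9 and 14.5 CPM against 25.7 and 26.1 CPM, and none was DE and higher. At an unadjusted p under 0.05 stood 9 of the 19, of which 8 were higher in Sox2-KD, against 21.3% of all tested genes. The list median was 0.34, and its 1 call of 19 stands beside 5.9% DE among all tested genes. The Amotl1 call ended whichever of the 4 libraries was left out. None of 16 retinoid genes was DE by edgeR's quasi-likelihood test, with 0 called by DESeq2 and 3 by the likelihood ratio test. An unadjusted p under 0.05 was reached by 5 of the 16, against 21.3% of all tested genes.

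Cell cycle, stress and metabolic lists were examined next, beside a share of 5.9% DE among all tested genes. Cdkn1a, the p53-induced inhibitor p21, was the DE gene among 21 p53 targets, at 412 and 377 CPM against 262 and 178 CPM (log2FC 0.84, adjusted p = 0.0317). A single call among 21 genes is near that share. That list gave 0 calls without either Sox2-KD library or labelled hnRNPK-KD replicate 2, and 3 without labelled hnRNPK-KD replicate 1. Of 24 cell cycle genes, Cdkn1c, Cdkn2b and Cdkn1a, all inhibitors of cyclin-dependent kinases, were DE and higher. With Pcna this made 4 calls, which fell to 2 without replicate 1 and 0 without replicate 2 of either group. The replication clamp gene Pcna was DE and lower, at 249 and 194 CPM against 341 and 346 CPM (log2FC -0.63, adjusted p = 0.0367). Of 23 glycolysis and hypoxia genes, Hk1, a hexokinase, was DE, at 148 and 219 CPM against 110 and 110 CPM, a call kept only without Sox2-KD replicate 1. For Hk1 the controls at 144 and 152 CPM and the Cdk9-KD libraries at 146 and 138 CPM lay near Sox2-KD replicate 1. The libraries labelled hnRNPK-KD were the lowest, and a single call among 23 genes is near the share over all tested genes. Iron handling showed 2 strong members of 13 tested: the iron exporter Slc40a1, at 11.9 and 11.5 CPM against 0.762 and 1.4 CPM (log2FC 3.43, SE 0.41, adjusted p = 0.00282), and the ferrireductase Steap3, at 31.9 and 52.6 CPM against 4.57 and 9.37 CPM (log2FC 2.60, adjusted p = 0.00473). In both genes the Sox2-KD libraries lay above all others, and the list kept 2 calls whichever library was left out.

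Interferon-response genes differed between the Sox2-KD replicates. Of 20 tested, 2 were DE and higher and 2 DE and lower, against 3.95% and 1.95% of all tested genes. Sox2-KD replicate 2 exceeded replicate 1 for 18 of the 20. The 4 calls became 9 without Sox2-KD replicate 1, 2 without labelled hnRNPK-KD replicate 1 and 0 without replicate 2 of either group. Oasl2, an antiviral oligoadenylate synthetase-like gene, had 35 and 195 counts in Sox2-KD against 5 and 7, and Rsad2 had 12 and 45 against 2 and 3. Without Sox2-KD replicate 2 the log2FC was 2.43 for Oasl2 and 2.12 for Rsad2 and neither was called, and leaving out either library labelled hnRNPK-KD also ended both calls while the direction stayed. Ifitm1, a membrane protein of early germ cells as well as an interferon target, was lower, at 21.3 and 19.3 CPM against 43.3 and 105 CPM (log2FC -1.87, adjusted p = 0.014). Ddx58, the RNA sensor RIG-I, was lower too, at 39.2 and 37.6 CPM against 60.7 and 57.8 CPM, although the controls at 32.3 and 28.5 CPM were below both groups.

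Genes of RNA-binding proteins matter here because hnRNPK is one. Among 31 tested poly(C)-binding and hnRNP genes, 1 was DE, against 5.9% of all tested genes. The list median was -0.27, or -0.16 with library totals. Hnrnpa2b1, a regulator of splicing and RNA transport, stood at 1192 and 952 CPM in Sox2-KD against 1644 and 1618 CPM in the libraries labelled hnRNPK-KD, with 1243 and 1262 CPM in the controls (log2FC -0.61, SE 0.152, adjusted p = 0.0424), a call that held only without Sox2-KD replicate 1 when 1 library was left out. Hnrnpa3 was similar in size but did not pass, at 1467 and 1412 CPM against 2075 and 2159 CPM (log2FC -0.56, adjusted p = 0.0517). Hnrnpu had 1377 and 1206 CPM against 1846 and 1795 CPM (adjusted p = 0.125), and Pcbp2, a close relative of hnRNPK, 519 and 459 CPM against 564 and 616 CPM (adjusted p = 0.314). An unadjusted p under 0.05 was reached by 8 of the 31, all lower in Sox2-KD, against 21.3% of all tested genes. Of 34 SR and cell-type splicing regulators, 2 were DE, against 5.9% of all tested genes. Mbnl2, a muscleblind protein, was DE and higher, at 92.6 and 97.8 CPM against 56 and 35.7 CPM (log2FC 1.05, adjusted p = 0.0212). Khdrbs3, a STAR-family splicing factor, was DE and lower, at 9.23 and 4.79 CPM against 31.7 and 36.9 CPM (log2FC -2.29, SE 0.278, adjusted p = 0.0029), with the other four libraries at 26.2 CPM or above. Of these 2 calls, 1 was made without replicate 2 of either group. Esrp2, the epithelial splicing regulator, had 20.1 and 21.1 CPM against 13.4 and 9.08 CPM (adjusted p = 0.0553), and Srsf1 504 and 451 CPM against 697 and 650 CPM (adjusted p = 0.13).

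P-TEFb, the CDK9 and cyclin T kinase that releases paused RNA polymerase II, is held inactive in the 7SK particle. None of 24 tested genes of these complexes was DE by edgeR's quasi-likelihood test. At an unadjusted p under 0.05 stood 3, against 21.3% of all tested genes, and DESeq2 and the likelihood ratio test each called 1. Cdk9 had 125 and 132 CPM in Sox2-KD against 110 and 124 CPM in the libraries labelled hnRNPK-KD (log2FC 0.14, adjusted p = 0.708). Mllt3, a subunit of the super elongation complex, had 20.7 and 10.6 CPM against 31.9 and 30.4 CPM (adjusted p = 0.0629). The study named 9 genes for their splicing, a choice made on these cells and so no independent evidence, and none of them was DE in total level. An unadjusted p under 0.05 was reached by 4 of the 9, against 21.3% of all tested genes. Neither DESeq2 nor the likelihood ratio test called any (0 and 0). Ash2l, a subunit of histone H3 lysine 4 methyltransferases, had 427 and 367 CPM against 574 and 532 CPM (log2FC -0.48, adjusted p = 0.104). Mtf2, a Polycomb-associated factor, had 432 and 370 CPM against 651 and 515 CPM (log2FC -0.54, adjusted p = 0.163). Gene-level counts do not show isoforms.

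Beyond the lists, the largest differences were in genes of varied function. Akr1cl, an aldo-keto reductase, stood at 26.6 and 39.8 CPM in Sox2-KD against 1.23 and 0.524 CPM (log2FC 5.23, SE 0.588, adjusted p = 0.00226). Lgals9, the lectin galectin 9, stood at 11.6 and 38.1 CPM against 0.762 and 0.931 CPM (log2FC 4.86, SE 0.649, adjusted p = 0.00444). Both Sox2-KD libraries were above all others for each, with control replicate 2 at 4.81 CPM for Akr1cl and control replicate 1 at 3.66 CPM for Lgals9 the next highest. Cytoskeletal genes were among these: Des, desmin, had 8.41 and 20.4 CPM against 0.879 and 0.524 CPM, Lcp1, plastin 2, 16.3 and 47.2 CPM against 2.05 and 1.8 CPM, and Gsn, gelsolin, 14 and 47.8 CPM against 2.76 and 1.22 CPM. The remaining 3 of the 12 largest were the inflammasome-family gene Nlrp4c (log2FC 4.12), the channel gene Pkd2l1 (log2FC 4.03) and the serotonin receptor gene Htr5a (log2FC 3.62). For all 12, Sox2-KD replicate 2 was above replicate 1.

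**Figure D4:**
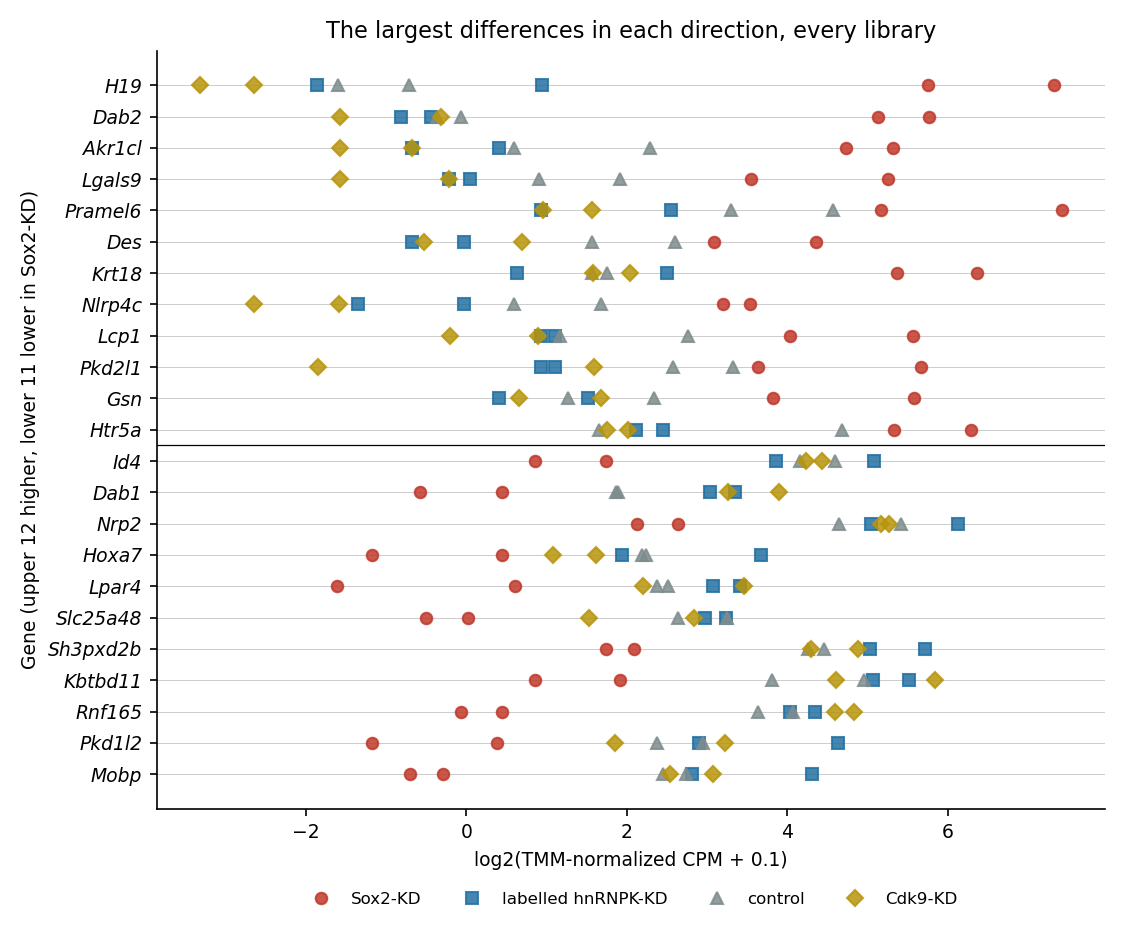
The 12 genes with the largest positive and 11 of the 12 with the largest negative log2FC among DE genes with a mean log2 CPM over 1 in the 4 libraries, with log2(TMM-normalized CPM + 0.1) on the horizontal axis and 1 row a gene. Symbols are libraries by group; the Sox2-KD libraries lie to the right of the libraries labelled hnRNPK-KD in the upper rows and to the left in the lower rows, and the control and Cdk9-KD libraries mostly lie with the latter.

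The genes with the smallest log2FC were likewise of varied function. Rnf165, a neuronal ubiquitin ligase also called Arkadia-like, was at 1.26 and 0.856 CPM in Sox2-KD against 16.3 and 20.2 CPM, with 12.4 to 28.5 CPM in the other four libraries (log2FC -4.09, SE 0.301, adjusted p = 0.000236). Nrp2, a semaphorin and VEGF co-receptor, was at 6.15 and 4.28 CPM against 33.1 and 69.9 CPM (log2FC -3.30, SE 0.383, adjusted p = 0.0024). In both genes the remaining 6 libraries lay above both Sox2-KD libraries. Dab1, the Reelin adaptor and a relative of Dab2, was lower (log2FC -3.30), whereas Dab2 was higher. Mobp, a myelin gene, stood at 0.714 and 0.514 CPM against 6.92 and 19.8 CPM (log2FC -4.42, adjusted p = 0.00293). Sh3pxd2b, a podosome adaptor, had 4.18 and 3.25 CPM against 32.5 and 52.4 CPM (log2FC -3.51, SE 0.308, adjusted p = 0.000594). Pkd1l2, Kbtbd11, Slc25a48 and Lpar4, with log2FC from -4.35 to -3.49, were also among the 12 smallest, as were Hoxa7 and Id4 above.

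The most abundant DE genes all differed by under 2-fold. Npm1, nucleophosmin of the nucleolus, was at 2739 and 2099 CPM in Sox2-KD against 3923 and 3503 CPM (log2FC -0.62, SE 0.159, adjusted p = 0.0464). Odc1, the first enzyme of polyamine synthesis, was at 433 and 326 CPM against 565 and 666 CPM (log2FC -0.70), and the aminopeptidase gene Lap3 at 363 and 353 CPM against 557 and 574 CPM (log2FC -0.66). Dcp2, the mRNA decapping enzyme, was at 329 and 250 CPM against 563 and 556 CPM (log2FC -0.95, adjusted p = 0.0252). All 4 were lower in Sox2-KD, while Nid2 and Cdh1 were the higher genes among the 8 most abundant. Npm1 has many processed pseudogenes, so its count is uncertain.

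A small set ran against the general position of the control and Cdk9-KD libraries. Among 721 DE genes with a mean log2 CPM over 1, 13 had all 4 of those libraries on the Sox2-KD side, 11 of them higher and 2 lower in Sox2-KD. Capn5, a calpain protease, had 22.3 and 41.6 CPM in Sox2-KD, 12.3 and 13.8 CPM in the libraries labelled hnRNPK-KD and 22.9 to 34 CPM in the other four (log2FC 1.29, SE 0.304, adjusted p = 0.0344). Bcl2l14, a BCL2-family gene, had 10.3 and 16.2 CPM against 4.92 and 6.23 CPM, with 8.7 to 13.7 CPM in the others (log2FC 1.25, adjusted p = 0.031). In both genes the libraries labelled hnRNPK-KD were the lowest. The same position was found for Mmp2, the sarcomere gene Mypn, the ubiquitin ligase gene Rnf157, Cryzl2 and the autophagy gene Wipi1, with log2FC from 1 to 2.12. Tmem56 was the reverse case, at 11.7 and 14.1 CPM in the libraries labelled hnRNPK-KD and 5.76 to 8.53 CPM in all others (log2FC -1.09, adjusted p = 0.0347).

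Promoters were read from RefSeq on GRCm38.p6, 250 bases before to 50 after the first listed start of each gene. They were available for 11208 tested genes. The SOX core CATTGT occurred on either strand in 7.33% of all 11208, in 42 of 466 higher DE genes (9.01%) and in 28 of 234 lower ones (12%). The octamer ATGCAAAT, bound by OCT4, occurred in 1.45% of all, 1.5% of higher and 2.14% of lower DE genes, and the TATA box letters TATAAA in 7.15%, 11.4% and 13.2%. These shares are descriptions and no test was made on them. Not every named gene was searched, and 91 of the 127 had a promoter available, so the windows below may not be a complete set. Windows are shown for 6 named DE genes that hold one of the first pair of motifs, and for Nanog. These windows let the letters be set beside the direction of each gene. They are written on the gene's strand, with the motif or its reverse complement in capitals.
Akr1cl (chr1:65032748-65032775, minus): aaatatgctgcACAATGtcccttcagtt
Ddx58 (chr4:40239994-40240021, minus): aaactcattgaACAATGcacttcaattg
Sox1 (chr8:12395526-12395555, plus): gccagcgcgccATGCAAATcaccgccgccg
Rfx4 (chr10:84756015-84756042, plus): aaaacaggcccACAATGggcttcacagt
Lin28a (chr4:134018896-134018923, minus): gggggttgggtCATTGTcttttagaatt
Cdx2 (chr5:147307378-147307407, minus): caacttttaaaATGCAAATcgtgtttctgg
Nanog (chr6:122707411-122707438, plus): tcttttgcattACAATGtccatggtgga
Akr1cl was higher in Sox2-KD and Ddx58, Sox1, Rfx4, Lin28a and Cdx2 were lower, while Nanog, whose window is a well-known SOX2 and OCT4 element, did not pass the test. Esrrb, Tubb3 and Zfp42, which did not pass either, also held one of these motifs. A match is no evidence of binding in these libraries.

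The number of calls rested on the agreement of 2 libraries on each side. The count was 875 without Sox2-KD replicate 1, but 645 of the 974 genes, 66.2%, were among them, and the lower calls fell from 322 to 214. No DE gene had the opposite sign under any of the settings tried. Both groups lay apart without overlap for all 974, so leaving out 1 library could hardly turn a sign. The other settings refitted the same counts, so the kept sign carries little weight. Each p measures spread between these libraries only, and with 2 a group that spread is borrowed largely from all 8 libraries and all genes.

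**Figure D5:**
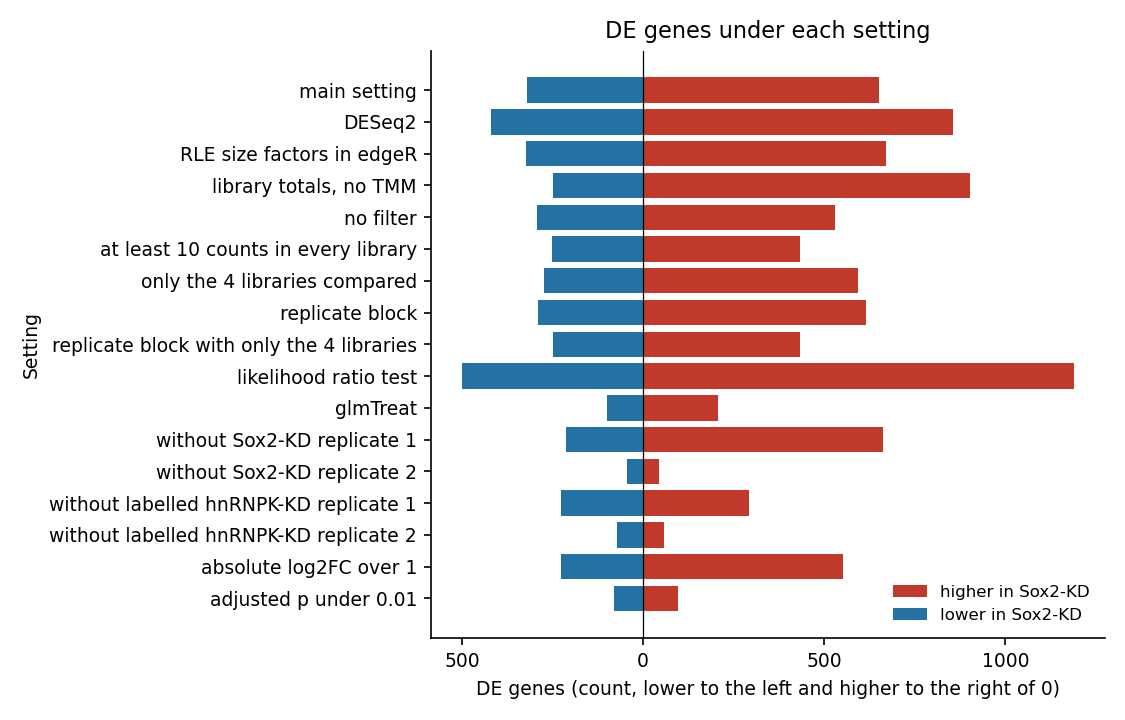
Number of DE genes (horizontal axis, lower genes to the left and higher genes to the right of 0) under the main and 16 other settings (vertical axis). The bars are longest for the likelihood ratio test, with 1190 higher and 500 lower genes, and shortest without Sox2-KD replicate 2, with 44 higher and 46 lower.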

How the data were processed

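RNA-seq of polyadenylated RNA from E14 ESCs was deposited as raw gene counts for 8 libraries, which the authors made from reads trimmed with Trimmomatic, using STAR 2.7.9a and featureCounts 2.0.1 on GRCm38 (mm10) per the submitters' processing notes (the study's methods give another STAR version). The counts are not normalized, and the sources used here give neither the strand setting nor how reads falling in several genes were counted. GENCODE vM21 gave a symbol to 55154 of 55335 gene identifiers. Counts were fitted in R 4.3.3 with edgeR 4.0.16 (filterByExpr with a minimum count of 10, TMM, quasi-likelihood test, all 8 libraries in 1 model with a group term), and the contrast was Sox2-KD minus labelled hnRNPK-KD. The filter keeps a gene that reaches the minimum in a single group, so genes near the floor in the other groups were also tested. P-values were adjusted by Benjamini-Hochberg over all 16504 tested genes. DE meant |log2FC| > 0.6 with adjusted p < 0.05. On counts simulated from the same libraries for this comparison, over 16075 genes, the test recovered 41% of genes changed by a log2FC of 1 and 70.7% of those changed by 2. There 105 and 92 genes were changed from a mean common to all groups, and 7 of 115 calls were false. That is far fewer changed genes than the 974 called in the data, so these recoveries need not hold for them.

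Genes named are the 12 largest and 12 smallest log2FC among DE genes with a mean log2 CPM over 1, the targeted genes, up to 6 DE members of each gene list with further members by role, the 8 most abundant DE genes, and the 8 largest differences with the control and Cdk9-KD libraries on the Sox2-KD side, of which 2 in all are not reported here. The members and lists were chosen with earlier results of these data known. Library totals of 16709201 to 17719366 counts limit genes with few counts, and floors cover counting error only. Alternatives were DESeq2 1.42.0, other scalings and filters, the 4 libraries alone, a replicate block, a likelihood ratio test, glmTreat, stricter thresholds and leaving out each library. Hairpin targets came from the study's oligonucleotide list and promoters from RefSeq. Plots used Python 3.11.15 and matplotlib 3.10.9.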

Additional observations from a re-analysis of the deposited data

How the results depend on the processing

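The contrast gave 974 DE genes, 652 higher and 322 lower in Sox2-KD. DESeq2 gave 1275, RLE size factors 993, library totals 1153, no filter on low counts 823, the 4 libraries alone 867, and an absolute log2FC over 1 left 779. At least 10 counts in every library left 685, with 434 higher. The likelihood ratio test gave 1690 (1190 higher, 500 lower), glmTreat 306 (207 and 99), and an adjusted p under 0.01 left 177 (97 and 80). With library totals 78.3% of the DE genes were higher against 66.9% with TMM, and the median log2FC of all genes moved from -0.01 to 0.10.

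Leaving out 1 library left an arm with a single sample, assumed to vary like the other groups, and gave 90 to 875 DE genes, 44 to 661 higher and 46 to 226 lower. The counts were 875 without Sox2-KD replicate 1, 90 without Sox2-KD replicate 2, 517 without labelled hnRNPK-KD replicate 1 and 129 without labelled hnRNPK-KD replicate 2. None (0) of the 974 genes had the other sign under any of these alternatives among those tested. The groups did not overlap for any of these genes, so this was nearly fixed in advance. Of 92 named DE genes besides Sox2, 92 kept the call with the likelihood ratio test, 87 with DESeq2, 73 with the 4 libraries alone, 46 with glmTreat and 25 without Sox2-KD replicate 2. The log2FC of Sox2 lost its call under glmTreat, at -0.73, and without any 1 library, at -0.83 to -0.64. The log2FC of Hnrnpk, not called, ranged from -0.25 without labelled hnRNPK-KD replicate 1, a reversed sign, to 0.48. The cause was not tested.

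A replicate block gave 905 DE genes, 615 higher and 290 lower, and 683 with only the 4 libraries, 434 higher and 249 lower. With the block in all 8 libraries, 80 of the 92 named calls held and 12 were lost. The deviations of same-numbered libraries correlated with r = 0.039 between Sox2-KD and labelled hnRNPK-KD and from -0.223 to 0.21 over all 6 pairs of groups, and with 2 replicates a group and no label of a shared batch the libraries were taken to share only a number. Depth limits genes with few counts.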
